A study of Mus musculus with 8 samples.

Results

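Aminoacyl-tRNA synthetases join each amino acid to its tRNA. Their genes were taken from the count table by symbol: 1 capital letter followed by "ars" with an optional 1 or 2 at the end, together with Farsa, Farsb, Eprs and Tarsl2. The rule gave 38 of the 47643 genes in the table, of which 21 encode cytosolic enzymes and 17 mitochondrial enzymes, the latter with symbols that end in 2. Tarsl2, a threonyl-tRNA synthetase paralogue whose symbol also ends in 2, was counted as cytosolic. All 38 had enough counts to be tested.

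The libraries hold polyadenylated RNA of E14 cells, an embryonic stem cell line of the mouse with 129/Ola background. Besides wild type (WT) there were 3 knockouts (KO), named Dgcr8_KO, Drosha_KO and Ago1_2_KO in the labels and written here as Dgcr8 KO, Drosha KO and Ago1_2 KO. Each genotype had 2 libraries, numbered 1 and 2 as in the labels. All groups grew for at least 2 weeks in 2i, that is N2B27 with LIF, the GSK3 inhibitor CHIR99021 and the MEK inhibitor PD0325901. DROSHA and DGCR8 make the Microprocessor that releases miRNA precursors, and AGO proteins carry mature miRNAs. Nothing in the labels ties the libraries to separate clones or cultures, so p-values measure only the spread between these libraries, which may be technical.

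Cells use separate enzymes for translation in the cytosol and in mitochondria, although Gars and Kars each serve both compartments. Several cytosolic synthetases sit together in the multisynthetase complex on the scaffold proteins AIMP1, AIMP2 and EEF1E1. When uncharged tRNA accumulates, the kinase GCN2 (gene Eif2ak4) phosphorylates eIF2α, translation of the transcription factor ATF4 rises, and ATF4 activates genes of amino acid uptake, amino acid synthesis and tRNA charging. Of the 21 cytosolic genes, 12 are reported to respond to ATF4 (Aars, Cars, Eprs, Gars, Iars, Lars, Mars, Nars, Sars, Tars, Wars and Yars).

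ATF4 binds, often with a C/EBP partner, at C/EBP-ATF response elements, for which the letters TGATGNAA were searched on both strands, from 250 bases before to 50 bases after each transcript start in RefSeq (GRCm38.p6). A promoter entry was matched for 28 of the 38 genes. Cars, Hars, Hars2, Lars, Nars, Pars2, Rars, Vars and Wars were among those without one. The motif was present in 5 of the 8 matched genes of the ATF4-reported group (62.5%), in 0 of 6 other cytosolic genes and in 0 of 14 mitochondrial genes. It was present in 1219 of 27025 genes with a window of the same length (4.51%). Counted by window, these were 1304 of 32851 (3.97%). For each of the 5, 30 bases around a match are printed because the motif set these 5 genes apart in sequence from the synthetases without a match. They are read 5′ to 3′ on the strand of the gene, and capitals mark the motif or its reverse complement TTNCATCA.
Aars: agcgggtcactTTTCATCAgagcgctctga
Gars: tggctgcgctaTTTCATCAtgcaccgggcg
Iars: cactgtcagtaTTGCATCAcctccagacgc
Tars: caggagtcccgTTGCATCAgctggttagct
Yars: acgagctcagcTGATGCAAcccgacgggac
The Aars match shown lies at chr8:111033840-111033869, with the motif beginning at base 10 after the start. Gars has its match at chr6:55037960-55037989, 30 bases before the start, and Tars at chr15:11399655-11399684 on the minus strand, 15 bases before the start. Iars (chr13:49682126-49682155) and Yars (chr4:129189895-129189924) carry it at bases 8 and 4 after the start, in the first exon. The match in Yars has the motif on the gene's own strand, and the other stretches shown have the reverse complement. A match describes letters in the window and is not a measured binding site. Eprs, Mars and Sars, also in the ATF4-reported group, had no match in their windows.

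Total counts per library lay between 13229771 and 26333907. Drosha was at 278 and 266 CPM (counts scaled to the effective library size) in WT and at 51.2 and 82.4 CPM in Drosha KO, and Ago2 was at 464 and 227 CPM in WT against 216 and 195 CPM in Ago1_2 KO. Dgcr8 counts were higher in Dgcr8 KO (392 and 370 CPM) than in WT (78.1 and 70.5 CPM), and Ago1 in Ago1_2 KO (160 and 87.8 CPM) overlapped WT (106 and 63.3 CPM). Which part of each gene was altered is not stated in the labels, so whole-gene counts do not check those 2 labels, and genotypes are named as labelled. Summed naive stem cell markers (12 genes) ranged from 5840 to 6920 CPM over all libraries, and 9 feeder or fibroblast markers from 6.8 to 16 CPM with 2 to 4 of them at 0. Of the 3 feeder markers tested, Thy1 and Col1a1 rose in Ago1_2 KO (log2 changes 1.9 and 2.23; edgeR adjusted p = 0.0209 and 0.0404). Markers of two-cell-like cells (13 genes found) differed by genotype, with sums of 4.06 to 7.84 CPM in WT, 22.4 to 27.3 in Dgcr8 KO, 92.6 to 136 in Drosha KO and 450 to 994 in Ago1_2 KO. Primitive endoderm markers (9 genes, 0 to 2 at 0) summed to 210 and 215 CPM in WT and 56.2 to 132 in the KO libraries. Most of this sum was Lama1, which fell in Drosha KO and Ago1_2 KO, and the other markers did not follow it. Gata4 rose in Drosha KO (log2 change 1.56, edgeR adjusted p = 0.043). In Ago1_2 KO 4 of the 5 tested markers had positive log2 changes, and 0 were called higher. Markers of the step from naive to primed cells (8 genes, 0 or 1 at 0) summed to 73.6 and 100 CPM in WT and 120 to 205 in the KO libraries. Of these, Zic2 rose in every KO, Fgf5 and Dnmt3a rose in Drosha KO and Ago1_2 KO, and T (Brachyury) fell in the same 2. Trophoblast markers (8 genes, 1 to 3 at 0) summed to 101 and 90.2 CPM in WT and 50.1 to 114 in the KO libraries. Krt18 fell in Dgcr8 KO and Ago1_2 KO and Eomes in Drosha KO and Ago1_2 KO. Of the 5 tested, 1, 2 and 1 had positive log2 changes in Dgcr8, Drosha and Ago1_2 KO. Cdx2 was at 2.64 and 2.6 CPM in Dgcr8 KO against 0.0564 and 0.726 in WT. Its log2 change of 2.68 there did not pass (edgeR adjusted p = 0.0872). The part of these marker lists in the synthetase results was not tested. In bulk RNA, fewer cells of a type and less RNA per cell cannot be told apart.

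Per kilobase of exon, cytosolic genes stood above mitochondrial ones with few exceptions. Gars had the highest mean level at 143 RPKM (CPM per kilobase of exon). Next came 103 RPKM for Nars, 84.5 for Iars, 66.4 for Rars and 64.2 for Farsb. Library values of Iars (68.7 to 114 RPKM) and Rars (51.2 to 103) overlapped, as did those of Rars and Farsb (44.9 to 95.4). Among mitochondrial genes Lars2 (20.7 RPKM), Rars2 (18.4) and Iars2 (13) were the highest, and Wars2 (2.29), Nars2 (2.53) and Mars2 (2.56) the lowest. Apart from Tarsl2, the lowest cytosolic level was that of Farsa (16.9 RPKM). In GRCm38, Gars lies at 55038007 to 55079500 on chromosome 6 (plus strand), Cars at 143557230 to 143600090 on chromosome 7 (minus strand), Sars at 108424865 to 108445209 on chromosome 3 (minus strand) and Wars2 at 99141068 to 99239186 on chromosome 3 (plus strand).

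Summed cytosolic synthetase mRNA was lower in each KO than in WT, by value, while the mitochondrial sum overlapped WT in Dgcr8 KO and Ago1_2 KO. In Dgcr8, Drosha and Ago1_2 KO, 13, 11 and 9 of the 21 cytosolic genes were not called. For the 17 mitochondrial genes these numbers were 17, 15 and 13. A gene that was not called is not thereby shown to be unchanged. Together the cytosolic genes held 8060 and 7370 CPM in WT, against 4920 and 4970 (Dgcr8 KO), 4590 and 4660 (Drosha KO) and 4490 and 4550 (Ago1_2 KO) (sums to 3 digits). Every KO library thus lay below both WT libraries, and the 6 KO libraries differed little from each other. The mitochondrial sum was 794 and 1000 CPM in WT, against 1010 and 861 (Dgcr8 KO), 675 and 689 (Drosha KO) and 881 and 582 (Ago1_2 KO). Lars2 supplied much of its spread between the libraries of WT and of Ago1_2 KO.

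In Dgcr8 KO against WT, 8 of the 38 genes were lower and 0 higher (edgeR's quasi-likelihood F test, Benjamini-Hochberg adjusted p under 0.05 over 16388 genes), where 4.48% of all genes were lower, 2.45% higher and 6.93% called in either direction. Both KO libraries lay below both WT libraries for 16 of the 21 cytosolic and 6 of the 17 mitochondrial genes, beside 31.2% of all genes. The 8 were Aars, Cars, Gars, Mars, Nars, Sars, Vars and Yars, all cytosolic. The median log2 change was -0.57 over the cytosolic and -0.14 over the mitochondrial genes, beside -0.03 over all genes. Without WT library 2 the mitochondrial median was 0.02, and Mars, Vars and Yars did not pass (edgeR adjusted p = 0.055, 0.0891 and 0.0542). Leaving out either Dgcr8 KO library ended all 8 calls (0 called, with 11 members at an unadjusted p under 0.05 in both fits). Leaving out either Ago1_2 KO library left 2 calls, and leaving out WT library 1 raised the count to 15.

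Drosha KO against WT gave 12 lower and 0 higher, beside 4.83% of all genes lower, 6.54% higher and 11.4% called. Both KO libraries lay below WT for 18 of 21 cytosolic and 5 of 17 mitochondrial genes, beside 26.1% of all genes. Of the 12 lower genes, 10 were cytosolic (Aars, Cars, Farsb, Gars, Lars, Mars, Nars, Sars, Wars, Yars), and Rars2 was among the mitochondrial ones. Median log2 changes were -0.77 for cytosolic, -0.32 for mitochondrial and -0.02 for all genes. Without WT library 2 the mitochondrial median was 0.01, and Rars2 did not pass (edgeR adjusted p = 0.0622). The count was 6 without Drosha KO library 1 and 7 without either Dgcr8 KO library.

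Ago1_2 KO against WT gave 15 lower and 1 higher, beside 7.38% of all genes lower, 10.2% higher and 17.6% called. For 19 of 21 cytosolic and 12 of 17 mitochondrial genes both KO libraries lay below WT, beside 31.9% of all genes. The lower genes were the 10 cytosolic ones just named with Eprs and Rars, and mitochondrial genes that included Hars2 and Rars2. Wars2 was the gene that rose. Medians were -0.82, -0.48 and -0.02 for cytosolic, mitochondrial and all genes, with -0.23 for the mitochondrial genes without WT library 2, where Hars2, Wars and Wars2 did not pass (edgeR adjusted p = 0.0605, 0.0961 and 0.0749). Without Ago1_2 KO library 1 the count fell to 2, without library 2 to 1, and without either Dgcr8 KO library to 9. The 3 comparisons use the same WT libraries and are therefore not independent of each other.

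**Figure D1:**
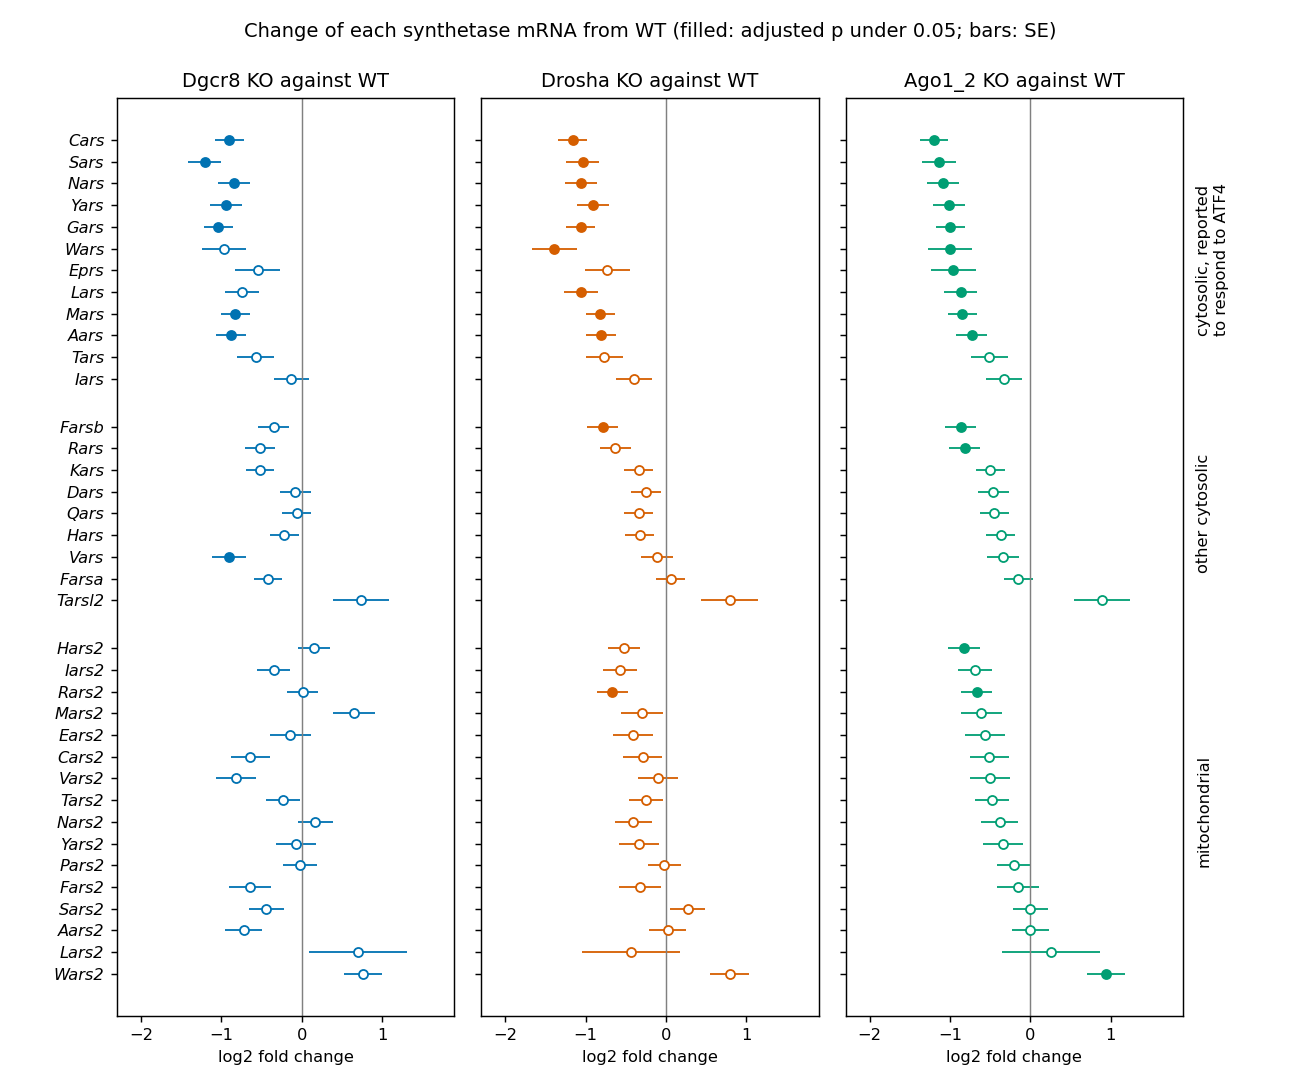
Log2 fold change from WT (x axis) of 37 of the 38 synthetase genes in the 3 knockouts, by group; bars are standard errors and filled points have an adjusted p under 0.05. Filled points lie mostly among the 12 ATF4-reported genes, where the median was -0.86 in Dgcr8 KO, -0.97 in Drosha KO and -0.98 in Ago1_2 KO. That list was chosen with earlier results of these data known.

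With all 4 genotypes tested at once (edgeR, adjusted p under 0.05; 24.8% of all genes called), 12 of the 21 cytosolic and 4 of the 17 mitochondrial genes differed. Without a Dgcr8 KO library 6 of the 38 were called, and 7 or 6 without Ago1_2 KO library 1 or 2, against 16 with all libraries. Both WT libraries lay above all 6 KO libraries for 14 cytosolic genes and for 1 mitochondrial gene, Iars2, beside 10.7% of all genes. Both lay below all KO libraries for Tarsl2 and Wars2 (10.5% of all genes).

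Most of the lower calls lay among the ATF4-reported genes: 7 of 12 were called lower in Dgcr8 KO, 9 in Drosha KO and 10 in Ago1_2 KO. The other 9 cytosolic genes had 1, 1 and 2 lower calls, with medians of -0.35, -0.33 and -0.45. In the same comparisons 4.48%, 4.83% and 7.38% of all genes were lower. With 9 genes, 1 call cannot be told from such a share. No test of the difference between these groups was made. The lists were chosen with earlier results of these data known, so the concentration of calls is a description only. Summed over the ATF4-reported genes, levels were 5830 ± 506 CPM in WT (SD, n = 2), 3460 ± 6.42 in Dgcr8 KO, 3160 ± 110 in Drosha KO and 3200 ± 41.5 in Ago1_2 KO. The other cytosolic genes summed to 1890 ± 15.4, 1490 ± 38.5, 1470 ± 58.4 and 1310 ± 6.44 CPM in the same order.

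Cars, the cysteinyl-tRNA synthetase, was at 394 and 408 CPM in WT, against 207 and 221 (Dgcr8 KO), 169 and 190 (Drosha KO) and 170 and 179 (Ago1_2 KO). All KO libraries lay well below WT, and Dgcr8 KO was the highest of the KO groups. Its log2 change was -0.90 (SE 0.18, edgeR adjusted p = 0.0205), -1.16 (SE 0.18, adjusted p = 0.00539) and -1.20 (SE 0.18, adjusted p = 0.00311), and the last call held in all 18 alternatives.

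Gars, which charges glycine tRNAs in both compartments, was at 745 and 699 CPM in WT, against 345 and 358 (Dgcr8 KO), 342 and 349 (Drosha KO) and 355 and 365 (Ago1_2 KO). The 6 KO libraries lay within a narrow band at about 48.7%, 47.8% and 49.9% of WT by fitted means (edgeR adjusted p = 0.0153, 0.00836 and 0.0074). Its length-scaled level, 231 RPKM on average in WT, was 113 in Dgcr8 KO, 111 in Drosha KO and 115 in Ago1_2 KO. Its promoter carries the TTTCATCA match printed above.

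Sars, for serine, was at 360 and 469 CPM in WT, against 171 and 188 (Dgcr8 KO), 179 and 223 (Drosha KO) and 184 and 191 (Ago1_2 KO). The WT libraries differed from each other, yet the lower one stayed above every KO library. It fell by 1.21 on the log2 scale in Dgcr8 KO (SE 0.21, edgeR adjusted p = 0.0145), by 1.04 in Drosha KO (SE 0.21, adjusted p = 0.0147) and by 1.14 in Ago1_2 KO (SE 0.21, adjusted p = 0.00765).

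Nars, for asparagine, stood at 809 and 627 CPM in WT, against 391 and 410 (Dgcr8 KO), 335 and 352 (Drosha KO) and 325 and 349 (Ago1_2 KO). Groups of WT and KO did not overlap, and fitted levels were 55.8%, 47.8% and 46.9% of WT (edgeR adjusted p = 0.0374, 0.0124 and 0.00811). Asns, which makes asparagine from aspartate and is an ATF4 target, was at 1540 and 1730 CPM in WT, against 834 and 942 (Dgcr8 KO), 585 and 839 (Drosha KO) and 485 and 497 (Ago1_2 KO).

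Yars, for tyrosine, was at 247 and 338 CPM in WT, against 154 and 150 (Dgcr8 KO), 149 and 163 (Drosha KO) and 148 and 142 (Ago1_2 KO). KO values were nearly equal in all 3 genotypes. The log2 changes were -0.94, -0.91 and -1.01 (SE 0.20 each, edgeR adjusted p = 0.0265, 0.0206 and 0.0102).

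Mars, for methionine, was at 300 and 338 CPM in WT, against 189 and 169 (Dgcr8 KO), 171 and 191 (Drosha KO) and 181 and 174 (Ago1_2 KO). Levels were 56.1%, 56.7% and 55.6% of WT (edgeR adjusted p = 0.0286, 0.0208 and 0.0144). The call in Dgcr8 KO was lost with an offset for GC (log2 change -0.61, adjusted p = 0.0666). Its exons overlap those of Ddit3 by 68 bases on the opposite strand. Ddit3, which encodes the stress factor CHOP, reached 28.2 and 63.3 CPM in WT and 6.97 to 19.3 CPM in the KO libraries. The use of strand in counting was not stated, so reads from the shared bases could go to either gene.

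Aars, for alanine, was at 680 and 626 CPM in WT, against 338 and 370 (Dgcr8 KO), 348 and 395 (Drosha KO) and 364 and 425 (Ago1_2 KO). Levels were 54.2%, 56.9% and 60.4% of WT (edgeR adjusted p = 0.0307, 0.0284 and 0.0316), with no overlap of groups. With an offset for GC the change in Dgcr8 KO was -0.50 and did not pass (adjusted p = 0.142). Its exons share 1326 bases with Exosc6 on the same strand, so some reads could be assigned to either.

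Lars, for leucine, was at 504 and 434 CPM in WT, against 300 and 262 (Dgcr8 KO), 252 and 197 (Drosha KO) and 282 and 231 (Ago1_2 KO). It fell to 47.9% of WT in Drosha KO and 54.6% in Ago1_2 KO (edgeR adjusted p = 0.0152 and 0.0232), while 59.9% in Dgcr8 KO did not pass (adjusted p = 0.0618). KO values all lay below WT.

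Wars, for tryptophan, was at 128 and 131 CPM in WT, against 65.8 and 66.3 (Dgcr8 KO), 33.5 and 65.0 (Drosha KO) and 64.0 and 65.9 (Ago1_2 KO). Drosha KO library 1 was the lowest, and the other 5 KO libraries were almost equal. Log2 changes were -0.97 (SE 0.27, edgeR adjusted p = 0.0593), -1.39 (SE 0.28, adjusted p = 0.0146) and -1.0 (SE 0.27, adjusted p = 0.0346). Without Drosha KO library 1 the change in Drosha KO was -0.99, and it still passed.

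Eprs, which charges both glutamate and proline tRNAs, was named after its values were seen because its WT libraries stood apart, at 1010 and 535 CPM. The KO libraries were at 546 and 507, 489 and 441, and 417 and 378 CPM, and WT library 2 lay within the range of Dgcr8 KO. In Ago1_2 KO the log2 change was -0.96 (edgeR adjusted p = 0.044), and this call was lost in 11 of 18 alternatives. Without WT library 1 it was -0.39. Tars (408 and 443 CPM in WT, 194 to 312 in the KOs) and Iars (603 and 425 CPM in WT, 362 to 482 in the KOs) passed in no comparison with WT, although both carry the promoter motif; the lowest adjusted p was 0.0616 for Tars and 0.248 for Iars.

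**Figure D2:**
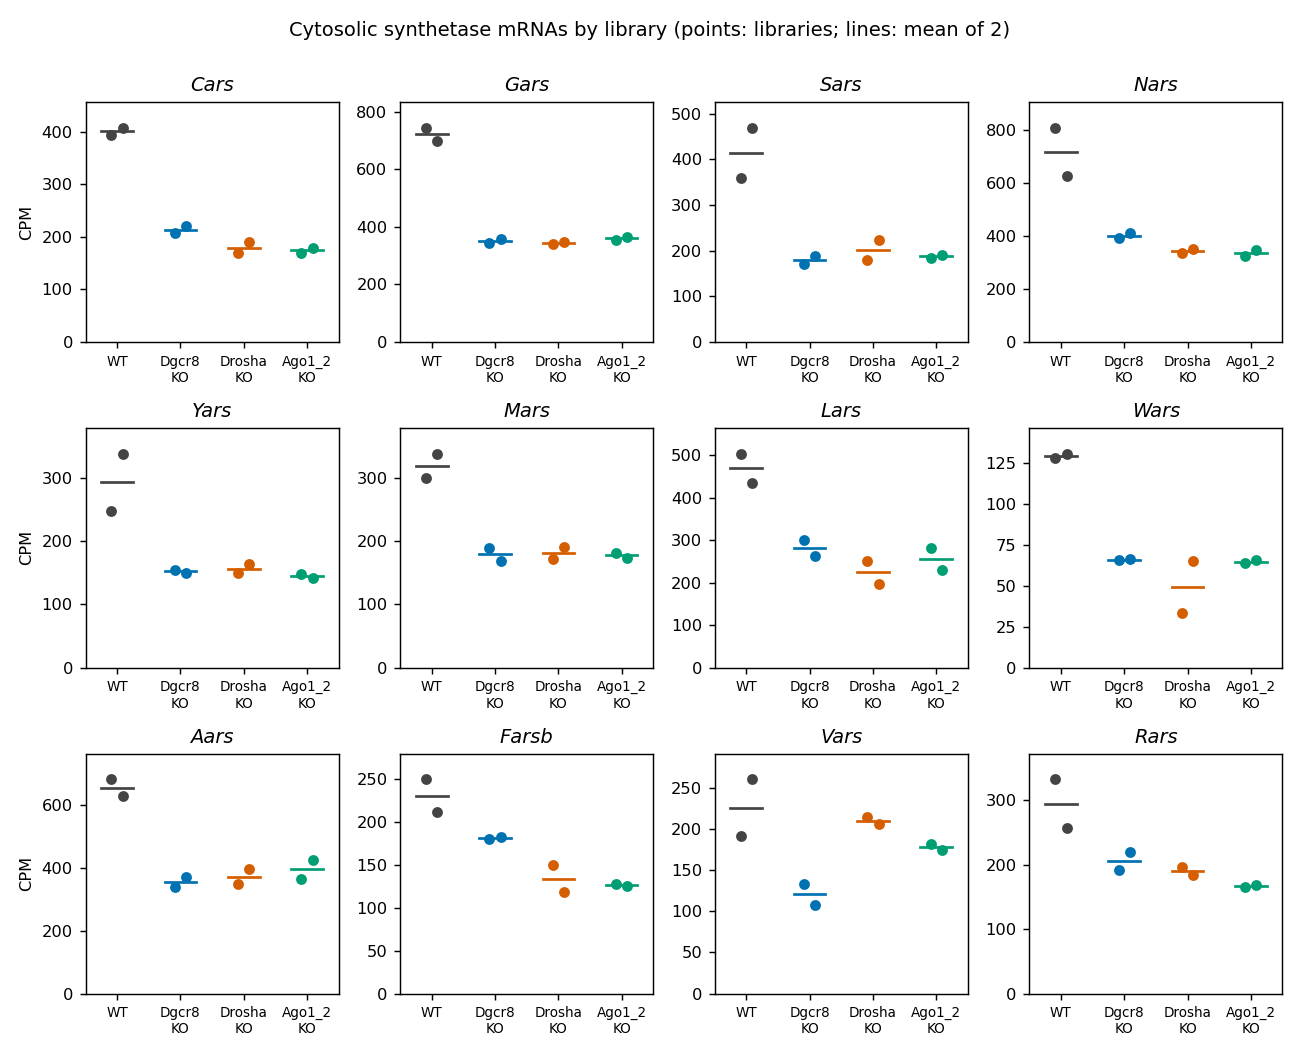
CPM (y axis, from 0) of the 12 cytosolic genes that differed between the genotypes, by library; points are libraries and lines are means of 2. In 11 of the panels both WT points lie above all KO points; the exception is Vars, with WT at 191 and 260 CPM and Drosha KO at 214 and 206.

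Among the other cytosolic genes, Farsb, the beta subunit of phenylalanyl-tRNA synthetase, was at 250 and 212 CPM in WT, against 180 and 183 (Dgcr8 KO), 150 and 118 (Drosha KO) and 128 and 125 (Ago1_2 KO). It fell to 58.0% of WT in Drosha KO and 54.8% in Ago1_2 KO (edgeR adjusted p = 0.0299 and 0.0169) and was at 78.5% in Dgcr8 KO (adjusted p = 0.241). Farsa, the alpha subunit of the same enzyme, was at 75.9 and 89.8 CPM in WT and between 61.4 and 91.9 CPM in the KOs, with fitted levels of 74.8%, 104% and 90% of WT and no call. The WT and Drosha KO values of Farsa overlapped.

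Rars, for arginine, was at 332 and 257 CPM in WT, against 192 and 219 (Dgcr8 KO), 196 and 184 (Drosha KO) and 165 and 168 (Ago1_2 KO). All KO libraries were below WT, and the Ago1_2 KO level of 56.6% passed (edgeR adjusted p = 0.0206), with 69.8% and 64.5% in the others (adjusted p = 0.111 and 0.0611).

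Vars, for valine, was at 191 and 260 CPM in WT, against 133 and 108 (Dgcr8 KO), 214 and 206 (Drosha KO) and 181 and 174 (Ago1_2 KO). It was low in Dgcr8 KO, and Drosha KO lay within the WT range. The log2 change in Dgcr8 KO was -0.91 (SE 0.21, edgeR adjusted p = 0.0328). Drosha KO exceeded Dgcr8 KO by 0.80 (SE 0.21, adjusted p = 0.0297). The Vars transcript had the highest GC content of the 38 (60.9%), and fold changes in Dgcr8 KO against WT were related to GC over 16315 genes (Spearman rho -0.444, a description across genes that share their libraries). With an offset for GC the Vars change was -0.28 (adjusted p = 0.405).

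Kars, Hars, Dars and Qars, for lysine, histidine, aspartate and glutamine, passed in no comparison with WT, with log2 changes from -0.52 to -0.06. Tarsl2 was at 3.78 and 3.72 CPM in WT, against 6.81 and 5.72 (Dgcr8 KO), 7.89 and 5.12 (Drosha KO) and 8.04 and 5.84 (Ago1_2 KO). It had the lowest length-scaled level of the 38 genes (0.87 RPKM) and was above WT in all 6 KO libraries. The log2 changes of 0.74, 0.79 and 0.89 (SE 0.35 each) did not pass, with adjusted p = 0.183, 0.161 and 0.101 by edgeR.

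The genes of the multisynthetase complex (Dars, Eprs, Iars, Kars, Lars, Mars, Qars and Rars) had 1, 2 and 4 lower calls of 8, and medians of -0.52, -0.52 and -0.66 in Dgcr8, Drosha and Ago1_2 KO. The 13 cytosolic genes outside it had 7, 8 and 8 lower calls and medians of -0.88, -0.81 and -0.87. The difference between these groups was not tested, and 8 of the 12 ATF4-reported genes lie outside the complex. Of the scaffolds, Eef1e1 was at 83.0 and 96.7 CPM in WT and 47.2 and 49.5 in Ago1_2 KO, and fell by 0.89 there (SE 0.19, edgeR adjusted p = 0.0145). Aimp1 and Aimp2 were called in no comparison with WT, at -0.68 and -0.65 in Ago1_2 KO (adjusted p = 0.0501 and 0.0653). By catalytic class, class I cytosolic genes had 4, 5 and 7 lower calls of 10 and class II genes 4, 5 and 5 of 11. Beside the counts of the complex and the classes, 4.48%, 4.83% and 7.38% of all genes were lower.

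Hars2, for histidine, was at 34.7 and 38.2 CPM in WT, against 44.1 and 36.8 (Dgcr8 KO), 26.1 and 24.8 (Drosha KO) and 21.6 and 19.5 (Ago1_2 KO). The Ago1_2 KO level was 56.3% of WT (edgeR adjusted p = 0.0233), and Drosha KO was at 69.8% (adjusted p = 0.118). Exons of Hars and Hars2 overlap by 195 bases on opposite strands. Hars itself was called in no comparison.

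Rars2, for arginine, was at 64.7 and 60.2 CPM in WT, against 58.6 and 67.3 (Dgcr8 KO), 36.3 and 42.3 (Drosha KO) and 38.8 and 39.4 (Ago1_2 KO). Dgcr8 KO spanned the WT values and the other KOs were at 63.0% and 62.6% of WT (edgeR adjusted p = 0.0491 and 0.0364). The Drosha KO call sat at the threshold and was lost in 13 of 18 alternatives.

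Mars2, for methionine, was at 32.4 and 25 CPM in WT, against 48.8 and 41.4 (Dgcr8 KO), 27.9 and 18.6 (Drosha KO) and 21.1 and 16.4 (Ago1_2 KO). It was highest in Dgcr8 KO and passed in no comparison with WT (log2 changes 0.65, -0.30 and -0.61; edgeR adjusted p = 0.132, 0.465 and 0.133).

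Wars2, for tryptophan, rose instead. It was at 9.31 and 7.88 CPM in WT, against 15.6 and 13.6 (Dgcr8 KO), 15.3 and 14.4 (Drosha KO) and 17.8 and 15.2 (Ago1_2 KO). All KO libraries exceeded WT, and the change of 0.94 in Ago1_2 KO passed (SE 0.24, edgeR adjusted p = 0.028), with 0.76 and 0.79 in the others (adjusted p = 0.0797 and 0.0629). The Ago1_2 KO call was lost in 6 of 18 alternatives, namely without either Ago1_2 KO library, either Dgcr8 KO library or WT library 2, and with only the 2 groups compared (largest adjusted p = 0.2), while the change stayed between 0.82 and 1.10.

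Lars2, named after its values were seen, was at 106 and 297 CPM in WT, against 384 and 273 (Dgcr8 KO), 167 and 131 (Drosha KO) and 394 and 88.6 (Ago1_2 KO). Its 2 libraries differed widely within WT and within Ago1_2 KO. Both Drosha KO libraries lay below both Dgcr8 KO libraries, a difference that did not pass (log2 difference -1.14, SE 0.62, edgeR adjusted p = 0.234). Gm42418, a predicted gene that overlaps ribosomal RNA sequence, was at 1520 and 2440 CPM in WT. It was at 3420 and 2480 (Dgcr8 KO), 1720 and 1880 (Drosha KO), and 2990 and 1510 CPM (Ago1_2 KO). In WT, Dgcr8 KO and Ago1_2 KO the library with more Gm42418 also had more Lars2; in Drosha KO it did not. The part of ribosomal RNA in the Lars2 counts was not tested, and Lars2 was called in no comparison with WT (SE 0.61). A further 11 mitochondrial genes (Aars2, Cars2, Ears2, Fars2, Iars2, Nars2, Pars2, Sars2, Tars2, Vars2 and Yars2) were called in no comparison with WT, with log2 changes from -0.82 to 0.27.

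**Figure D3:**
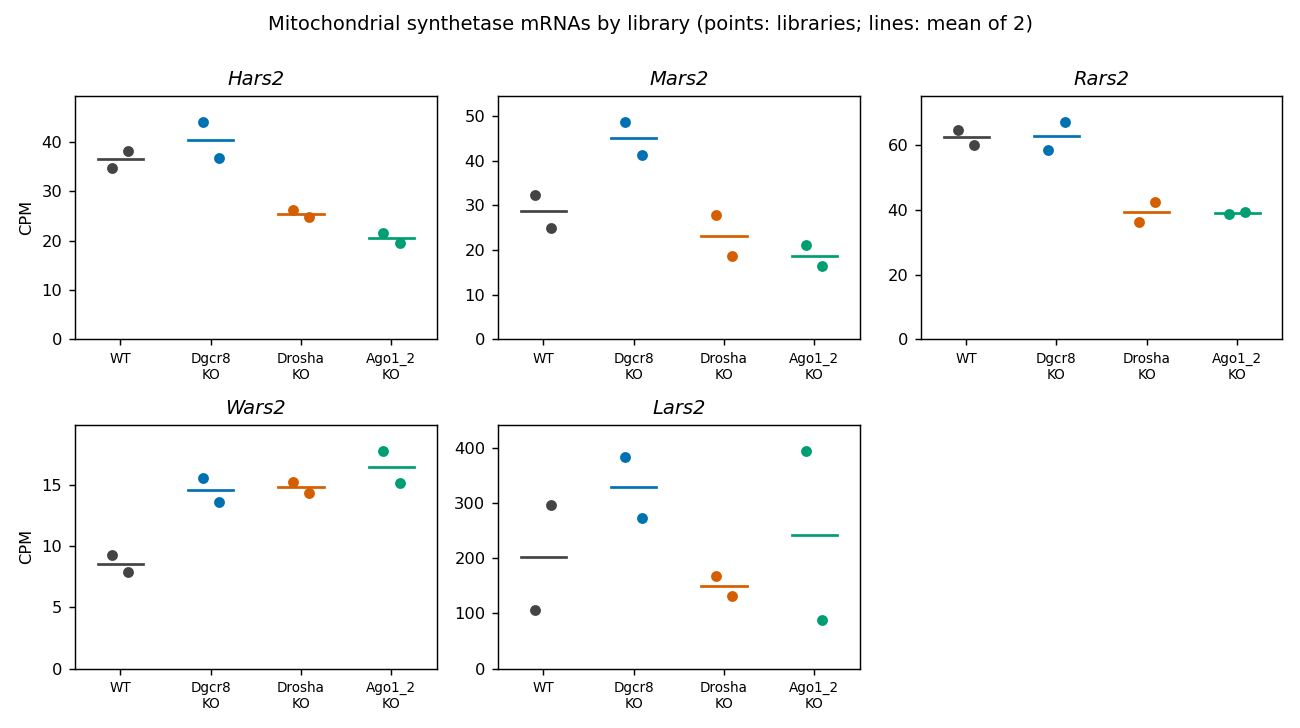
CPM (y axis, from 0) of 5 mitochondrial synthetase genes by library; points are libraries and lines are means of 2. Hars2 and Rars2 are low in Drosha KO and Ago1_2 KO, and Mars2 is highest in Dgcr8 KO. Wars2 is lowest in WT at 9.31 and 7.88 CPM, and Lars2 varies most within WT and Ago1_2 KO.

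The knockouts were also compared with each other. Drosha KO against Dgcr8 KO gave 1 higher gene, Vars, and 3 lower ones, Mars2 and Rars2 among them (edgeR; 9.67% of all genes higher, 5.74% lower, 15.4% called). The log2 differences were -0.96 for Mars2 (SE 0.26, adjusted p = 0.0378) and -0.68 for Rars2 (SE 0.19, adjusted p = 0.0383). Ago1_2 KO against Dgcr8 KO gave 4 lower genes and 0 higher (11.6% of all genes higher, 5.54% lower, 17.1% called). They included Hars2 at -0.98 (SE 0.20, adjusted p = 0.0112), Mars2 at -1.26 (SE 0.27, adjusted p = 0.0122) and Rars2 at -0.69 (SE 0.19, adjusted p = 0.0343). The genes that were lower are all mitochondrial, and the 2 comparisons share the Dgcr8 KO libraries. They make up 7.89% and 10.5% of the 38 genes, and 17.6% and 23.5% of the mitochondrial ones. The shares of the 38 are below the shares of all genes called in either direction. Counts this small are not read as a result about mitochondrial genes. The lower calls depended on single libraries: 0 or 1 member was called in Drosha KO against Dgcr8 KO without Dgcr8 KO library 1 or 2, 2 without Drosha KO library 2, and 1 without either Ago1_2 KO library. In Ago1_2 KO against Dgcr8 KO, 0 were called without either Dgcr8 KO library or without Ago1_2 KO library 2 (with 5, 3 and 4 at an unadjusted p under 0.05), and 1 without Ago1_2 KO library 1. With either WT library left out, the counts were 8 and 7. Fold changes were related to GC in both comparisons (Spearman rho 0.425 and 0.369). With the GC offset, 1 gene was called in the first comparison and 3 in the second.

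Ago1_2 KO and Drosha KO differed in 0 of the 38 genes by edgeR, with 0 at an unadjusted p under 0.05, and in 0 by DESeq2 and by limma-voom, where 0.732% of all genes were called by edgeR. Their cytosolic genes had a median difference of -0.04 and a range from -0.24 to 0.40.

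Each of the 17 mitochondrial genes has a cytosolic gene for the same amino acid, with Eprs set against both Ears2 and Pars2, and Farsa against Fars2. The cytosolic gene had the lower log2 change in 14 of 17 pairs in Dgcr8 KO, 12 in Drosha KO and 12 in Ago1_2 KO, with median differences of -0.41, -0.52 and -0.39. No test was made over the pairs. The widest contrast was Wars with Wars2: in Ago1_2 KO Wars fell by 1.00 and Wars2 rose by 0.94. Sars fell by 1.14 in that comparison and Sars2 was at 0.00 (SE 0.22).

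**Figure D4:**
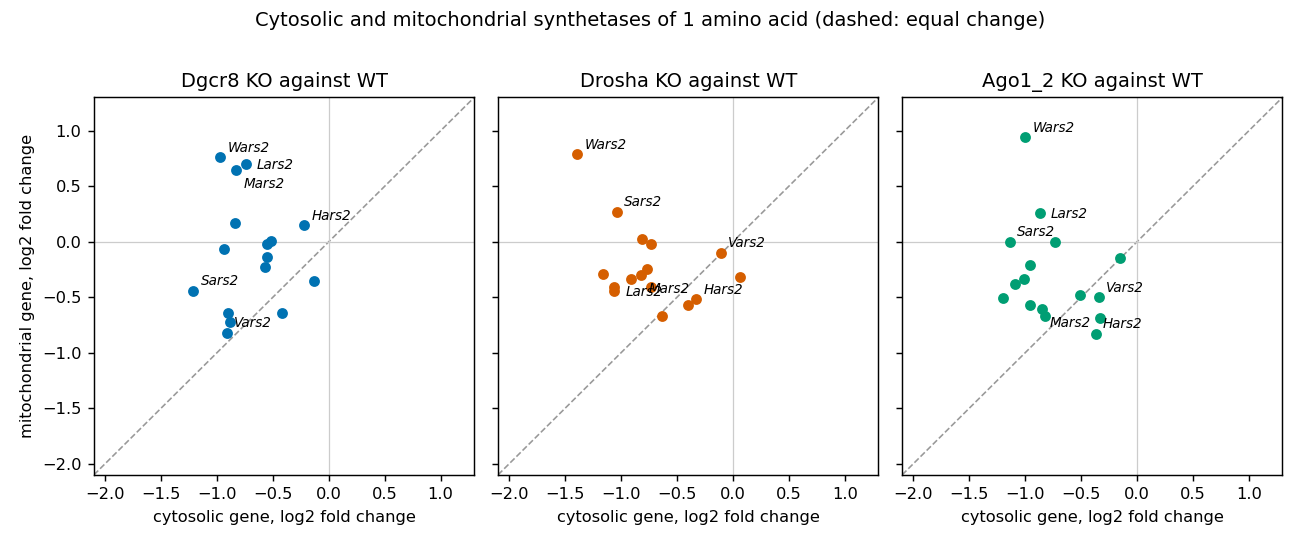
Log2 fold change from WT of the mitochondrial gene (y axis) against that of the cytosolic gene for the same amino acid (x axis), 16 of the 17 pairs in each knockout; the dashed line marks equal change. Most points lie above the line (14, 12 and 12 in Dgcr8, Drosha and Ago1_2 KO), and Wars2 lies furthest above it.

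Other known ATF4 targets, 26 genes of amino acid synthesis, uptake and stress, gave lower calls in 20, 20 and 21 genes and 0 higher calls in Dgcr8, Drosha and Ago1_2 KO, with medians of -1.33, -1.33 and -1.26. The lower calls are 76.9%, 76.9% and 80.8% of the list, where 4.48%, 4.83% and 7.38% of all genes were lower. Of the 26 genes, 21 had a promoter entry, and 7 of the 21 had the motif (33.3%). Ddit4, an inhibitor of mTORC1 signalling, was at 87.1 and 72.9 CPM in WT, against 11.8 and 9.4 (Dgcr8 KO), 9.19 and 9.65 (Drosha KO) and 22.5 and 22.5 (Ago1_2 KO). Its log2 changes were -2.91 (SE 0.22, edgeR adjusted p = 0.000567), -3.08 (SE 0.22, adjusted p = 0.000649) and -1.83 (SE 0.21, adjusted p = 0.00127). Chac1, which degrades glutathione, was at 59.5 and 41.3 CPM in WT and 2.16 to 6.58 in the KOs. Phgdh, the first enzyme of serine synthesis, was at 232 and 261 CPM in WT and 36.7 to 60.1 in the KOs. Their log2 changes were larger than that of any synthetase in the same comparison.

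Among 15 regulators of the pathway, 5 were lower and 1 higher in each comparison with WT. In Dgcr8, Drosha and Ago1_2 KO, 4.48%, 4.83% and 7.38% of all genes were lower and 2.45%, 6.54% and 10.2% higher. A count of 1 higher gene in 15 is near that share in Drosha KO and below it in Ago1_2 KO. Atf4 mRNA itself was at 344 and 658 CPM in WT, against 207 and 254 (Dgcr8 KO), 331 and 423 (Drosha KO) and 375 and 480 (Ago1_2 KO). Its groups overlapped in Drosha KO and Ago1_2 KO, and no comparison passed (edgeR adjusted p = 0.0569, 0.39 and 0.624). ATF4 is controlled largely at translation, which RNA counts do not measure. Eif2ak4, the GCN2 kinase, was not called (0.15, 0.49 and 0.54; adjusted p = 0.655, 0.149 and 0.101). Trib3, an ATF4-induced pseudokinase, was at 70.9 and 94.0 CPM in WT and 8.89 to 22.0 in the KOs, with changes of -3.09, -2.63 and -2.02 (adjusted p = 0.00137, 0.00132 and 0.00228). Eif2ak3, the PERK kinase that phosphorylates eIF2α under endoplasmic reticulum stress, was the 1 that rose, by 0.88, 0.73 and 0.93 (adjusted p = 0.0345, 0.0474 and 0.0161); it and Atf4, Eif2ak4 and Asns were named after their values were seen.

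**Figure D5:**
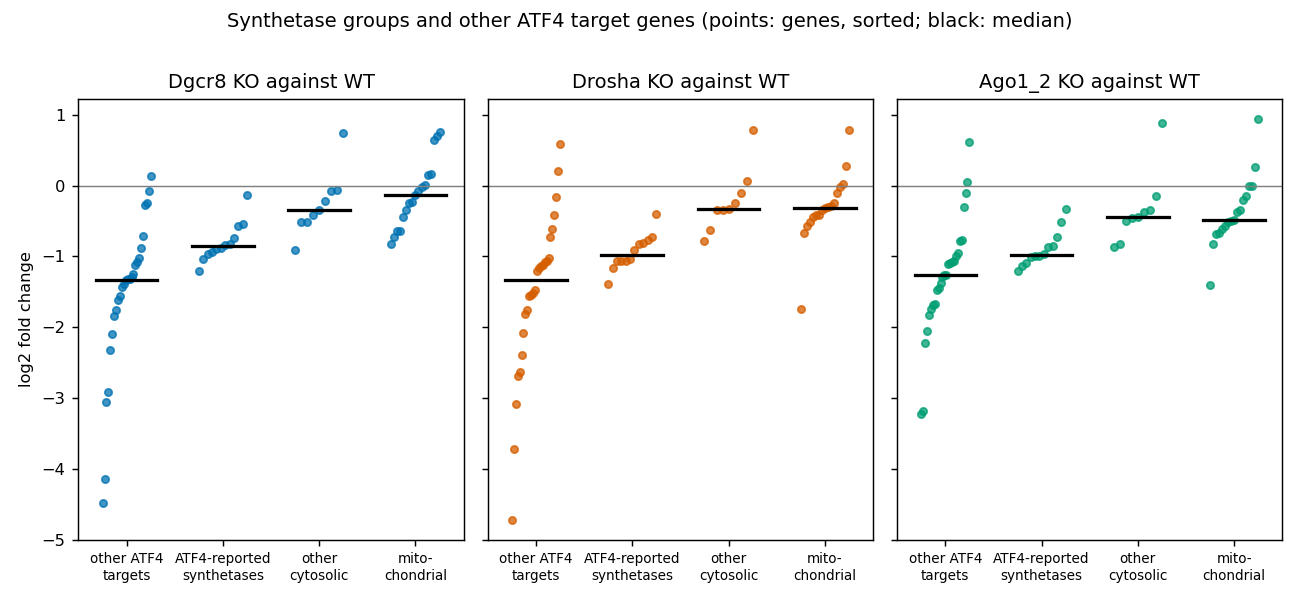
Log2 fold change from WT (y axis) of 26 other ATF4 targets, 12 ATF4-reported synthetases, 9 other cytosolic and 17 mitochondrial synthetases in each knockout; points are genes and black lines are medians. In Dgcr8 KO the medians run from -1.33 through -0.86 and -0.35 to -0.14. The last step is absent in the other knockouts. There the other cytosolic and mitochondrial medians were -0.33 and -0.32 (Drosha KO) and -0.45 and -0.48 (Ago1_2 KO).

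Other genes act beside the synthetases in translation. Of 11 genes listed under tRNA export, editing and elongation, 0, 1 and 2 were lower and 0 higher in Dgcr8, Drosha and Ago1_2 KO (edgeR). In Dgcr8 KO 2 were at an unadjusted p under 0.05. The list includes Vbp1, a prefoldin subunit, and the mitochondrial elongation factors Tufm and Tsfm. Its lower genes are 0%, 9.09% and 18.2% of the list, where 4.48%, 4.83% and 7.38% of all genes were lower. Eef1b2, an elongation factor subunit, was at 1060 and 1640 CPM in WT, against 1030 and 1030 (Dgcr8 KO), 693 and 657 (Drosha KO) and 681 and 626 (Ago1_2 KO), and fell by 1.00 and 1.05 in the last groups (adjusted p = 0.0299 and 0.0199). Of 10 genes listed as partners of mitochondrial tRNA charging, 0, 1 and 1 were lower (0%, 10% and 10%, beside the same shares of all genes). Not all of them act in mitochondria alone. Mtif2, a mitochondrial initiation factor, was at 77.0 and 65.5 CPM in WT, against 98.7 and 89.3 (Dgcr8 KO), 37.4 and 48.6 (Drosha KO) and 52.3 and 48.6 (Ago1_2 KO). It was lower than in Dgcr8 KO in both other knockouts, as was Trnt1, which adds the CCA end to tRNAs (2 of 10 called in each of those comparisons). Of all genes, 5.74% were lower and 15.4% called in either direction in Drosha KO against Dgcr8 KO. In Ago1_2 KO against Dgcr8 KO these shares were 5.54% and 17.1%. A count of 2 in 10 is thus near the share called in either direction.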

How the data were processed

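Whole-number counts, not normalized, were deposited by the authors for 47643 genes in 8 libraries. Per the submitters' processing notes, reads were aligned with STAR 2.4.2a to mm10 (GRCm38). Per the labels the kit was Illumina TruSeq with a reverse-stranded protocol. Counter, strand use in counting and annotation: not given in the sources used here. Unused count columns numbered 0. Of 47643 identifiers, 47224 matched a symbol. Gene overlaps, GC content and lengths came from GENCODE M21, and promoters from RefSeq.

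Genes were filtered with filterByExpr by genotype (16388 left), scaled with TMM and fitted in edgeR 4.0.16 (R 4.3.3) with 1 mean per genotype over all 8 libraries. Quasi-likelihood F tests were adjusted by Benjamini-Hochberg over those 16388 genes, with calls at adjusted p under 0.05. CPM used TMM-scaled library sizes, and RPKM divided them by exon length. The synthetases and all gene lists were chosen with earlier results of these data known, so no test over a list was made. Values per library are given for up to 16 synthetases called in a comparison with WT, by the p over all genotypes, for the 4 mitochondrial genes with the smallest such p, and for the lowest and highest by RPKM. Of each other list up to 3 genes were named by that p. Eprs, Lars2, Tars, Iars and Farsa were added after their values were seen. Tarsl2 was also placed by its symbol, as an alternative chosen after seeing the data.

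On simulated data (Drosha KO against WT, 16005 genes), 18% of 2-fold and 80% of 4-fold changes were recovered, with 2 false calls. Alternatives changed the scaling (size factors from DESeq2, or totals alone), the test (DESeq2 1.42.0 Wald test, or limma-voom in limma 3.58.1), the filter (none, or 1 CPM in 2 libraries), the libraries (each left out, or only the 2 groups compared), the model (a replicate block, a GC offset, or both) and the placement of Gars and Kars. Figures used Python 3.11.15 with matplotlib 3.10.9. Reads were not analysed here, and 1 gene and 1 sequence are not reported here.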

Additional observations from a re-analysis of the deposited data

How the results depend on the processing

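No synthetase called in a comparison with WT changed direction in the 18 alternatives run, but most calls were lost in at least 1: 0 of 8 calls in Dgcr8 KO, 2 of 12 in Drosha KO (with Wars) and 1 of 16 in Ago1_2 KO (Cars) held in all. With only the 2 groups compared, their libraries alone estimate the spread. The number of synthetases called was then 2 in Dgcr8 KO, 2 in Drosha KO and 8 in Ago1_2 KO against WT. For Ago1_2 KO against Dgcr8 KO it was 14, beside 4 with all libraries. Without a filter 13 were called in Dgcr8 KO, and DESeq2's Wald test called 7 in Drosha KO against Dgcr8 KO. With the GC offset that comparison had 1 call. The cause of these differences in count was not tested.

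With 1 library left out, a lone library being assumed to vary like the other genotypes, calls ranged from 0 to 15 in Dgcr8 KO against WT, 6 to 14 in Drosha KO, 1 to 19 in Ago1_2 KO, 0 to 8 between Drosha KO and Dgcr8 KO, 0 to 7 between Ago1_2 KO and Dgcr8 KO, and 6 to 21 over all genotypes. Cytosolic medians against WT ranged from -0.69 to -0.57, -0.77 to -0.64 and -0.82 to -0.59 in Dgcr8, Drosha and Ago1_2 KO. Mitochondrial medians ranged from -0.22 to 0.02, -0.44 to 0.01 and -0.49 to -0.23, with the sign turned in Dgcr8 KO and Drosha KO without WT library 2. Between knockouts, cytosolic medians ranged from -0.18 to -0.06 (Drosha against Dgcr8), -0.1 to -0.04 (Ago1_2 against Dgcr8) and -0.09 to -0.03 (Ago1_2 against Drosha), and mitochondrial ones from -0.26 to -0.09, -0.34 to -0.2 and -0.16 to -0.04.

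Scaling by library size alone gave cytosolic medians of -0.49, -0.72 and -0.74 against WT, -0.15 for Drosha KO against Dgcr8 KO and 0.01 for Ago1_2 KO against Drosha KO, which turned its sign. In Ago1_2 KO the cytosolic median was -0.79 with DESeq2 size factors and also with only the 2 groups compared. The GC offset gave -0.67 in Dgcr8 KO, -0.75 in Ago1_2 KO, -0.06 in Drosha KO against Dgcr8 KO (mitochondrial -0.07) and -0.1 for Ago1_2 KO against Dgcr8 KO. With Tarsl2 placed by its symbol, cytosolic medians were -0.66 in Dgcr8 KO, -0.14 for Drosha KO and -0.1 for Ago1_2 KO against Dgcr8 KO. Leaving out Gars and Kars gave -0.17 and -0.13 in the last 2 comparisons, and counting them as mitochondrial gave a mitochondrial median of -0.03 in Drosha KO against Dgcr8 KO.

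Same-numbered libraries correlated in their deviations from the genotype means at 0.0963 to 0.245, so the replicate numbers were not taken as pairs. With the replicate block, 14 synthetases were called in Dgcr8 KO, 15 in Drosha KO and 18 in Ago1_2 KO against WT. Shares of all genes called are given for the main fit alone. Counts under the alternatives are therefore not read as results about the synthetases. Between knockouts there were 8 (Drosha against Dgcr8), 6 (Ago1_2 against Dgcr8) and 0 (Ago1_2 against Drosha), and 21 over all genotypes. With the replicate block and the GC offset, 1 was called in Drosha KO against Dgcr8 KO, and cytosolic medians were -0.67 in Dgcr8 KO, -0.76 in Ago1_2 KO, -0.06 in Drosha KO against Dgcr8 KO (mitochondrial -0.08) and -0.1 for Ago1_2 KO against Dgcr8 KO.

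With 2 libraries per genotype, changes can be missed: in the simulated data 18% of 2-fold changes were recovered. That simulation changed 200 genes, whereas 1862 genes were called in Drosha KO against WT. Its share therefore does not give the power for the synthetases. WT libraries differed from each other by over 2-fold in 1623 genes, Drosha KO libraries in 1412, Ago1_2 KO libraries in 243 and Dgcr8 KO libraries in 120.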
